A study of Mus musculus with 4 samples.

Results

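The comparison described here was between the liver miRNAs of Clock mutant mice and of wild type (WT) mice killed at zeitgeber time 2 (ZT2), that is 2 h after lights on. It rested on 2 of the 4 arrays of the study, 1 per genotype. The other 2 arrays held the same genotypes at ZT14, 14 h after lights on, and were used only to show what the same miRNAs did there. Each array was hybridized with RNA pooled from the livers of 3 male mice of 6 to 8 weeks, kept singly under 12 h of light and 12 h of darkness for 2 weeks. The mutants carried the ClockΔ19 allele, and the strain of the WT mice and the zygosity of the mutants were not given in the sources used here. Members were all 611 mouse miRNAs on the array, of which 194 were detected at ZT2 on at least 1 array and 160 on both. Because each genotype was a single pool, no test could be made and no value below carries a p-value. The only error available came from the repeated spots of a miRNA, about 20 per array. Their SD, combined over both arrays, is written here as the spot SD. It is the scatter of single spots, with a median of 0.15 on the log2 scale. The SE of a ratio of spot means was smaller, with a median of 0.034, so a ratio within its spot SD can still exceed its SE. Both describe the array reading and not the spread between mice.

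CLOCK pairs with BMAL1 to switch on genes that carry E-box elements, among them the Per and Cry genes whose proteins then shut the pair down, and this loop runs in liver cells as in the brain. The ClockΔ19 allele loses an exon of the activation region, and its protein binds DNA with BMAL1 while activating poorly. A miRNA is a short RNA cut from a hairpin and held by an Argonaute protein. The bases near its start, called the seed, pair with messenger RNAs and lower their translation or stability, so miRNAs with the same seed are counted as a family.

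Of the 194 detected miRNAs, 132 were matched by name to a mature sequence in RefSeq (build GRCm38.p6). The sequences below belong to the families and clusters on which the results turn, with the seed, bases 2 to 8, in capitals.
miR-802: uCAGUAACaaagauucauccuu
miR-130a: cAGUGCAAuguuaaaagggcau
miR-301a: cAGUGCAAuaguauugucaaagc
miR-99a: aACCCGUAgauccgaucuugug
miR-100: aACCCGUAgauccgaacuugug
miR-99b: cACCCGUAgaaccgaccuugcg
let-7c: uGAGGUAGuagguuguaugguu
let-7e: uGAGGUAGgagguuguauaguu
miR-125b-5p: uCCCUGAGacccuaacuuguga
miR-125a-5p: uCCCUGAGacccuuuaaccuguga
miR-200a: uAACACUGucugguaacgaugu
miR-141: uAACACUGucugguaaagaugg
miR-200b: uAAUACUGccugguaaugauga
miR-429: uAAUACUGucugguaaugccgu
miR-451: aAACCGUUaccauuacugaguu
miR-99a and miR-100 differed at 1 of 22 bases, as did let-7c and let-7a, while miR-99b differed from either of the first pair at 4 of 22. Probes for members this close can bind each other's miRNA, so their ratios are not independent readings.

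Signals are given in scaled units: the background-subtracted intensity of an array divided by its 75th percentile (taken over the 123 miRNAs that every array detected), then multiplied by the mean of the 2 ZT2 percentiles. These percentiles were 537 for WT and 503 for the mutant. Among the 160 miRNAs measured on both arrays, 141 (88.1%) lay within 1.5-fold of WT, and the middle of the distribution ran from a log2 ratio of -0.29 to 0.10 at its quartiles. The mutant was below WT for 96 miRNAs (60%) and above for 64 (40%). At least 1.5-fold, 16 miRNAs were lower (10%) and 3 were higher (1.88%). Counting also the bounds of miRNAs detected on 1 array, 16 of 194 were at least 2-fold lower (8.25%) and 0 were higher (0%). This balance rested on how the arrays were scaled and summarised. In the log2 values of the authors, taken with the detection calls and bounds used here, 9 were lower and 27 higher. Their median log2 ratio was 0.74. These are not the counts of the paper, which reported more miRNAs down than up by 2-fold at ZT2. With the scanner's summed signal 33 were lower and 17 higher. With the percentile taken over all mouse miRNAs the median was 0.24, against -0.065 here. The ratio exceeded the spot SD downward for 49 miRNAs and upward for 35.

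The direction of the ratio differed between brightness classes. In the 22 miRNAs with a mean unscaled signal of 1000 or more on both ZT2 arrays, the median log2 ratio was 0.095, with 16 above 0. In the 52 miRNAs between 100 and 1000, it was -0.018, with 25 above 0. In the 80 miRNAs between 10 and 100 it was -0.15, with 58 below 0, and in the 6 below 10 it was -0.64, with 5 below 0. The scatter of the spots widened as signal fell, from a median spot SD of 0.097 in the brightest class to 0.26 between 10 and 100 and 1.27 below 10. At ZT14 the medians of the first 3 classes, over 22, 51 and 49 miRNAs, were -0.039, -0.0058 and -0.087. These medians lay closer together than at ZT2, over fewer miRNAs in the dimmer classes. The ratios themselves scattered more at ZT14, with an SD of 0.64 over 123 miRNAs against 0.36 over 160 at ZT2. The median gap between the arrays in the class from 10 to 100 was 2.92 scaled units. Undetected miRNAs had a median unscaled signal of -2.90 in WT and -3.99 in the mutant. With both arrays set to 0 at that median, an alternative added after seeing the data, the class medians from bright to dim were 0.092, -0.018, -0.074 and -0.25, and 5 miRNAs rather than 16 were at least 2-fold lower. With normexp background correction 1 was. With quantile normalization the median in the class from 10 to 100 was 0.12, above 0. The plot of ratio against signal shows both features.

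**Figure D1:**
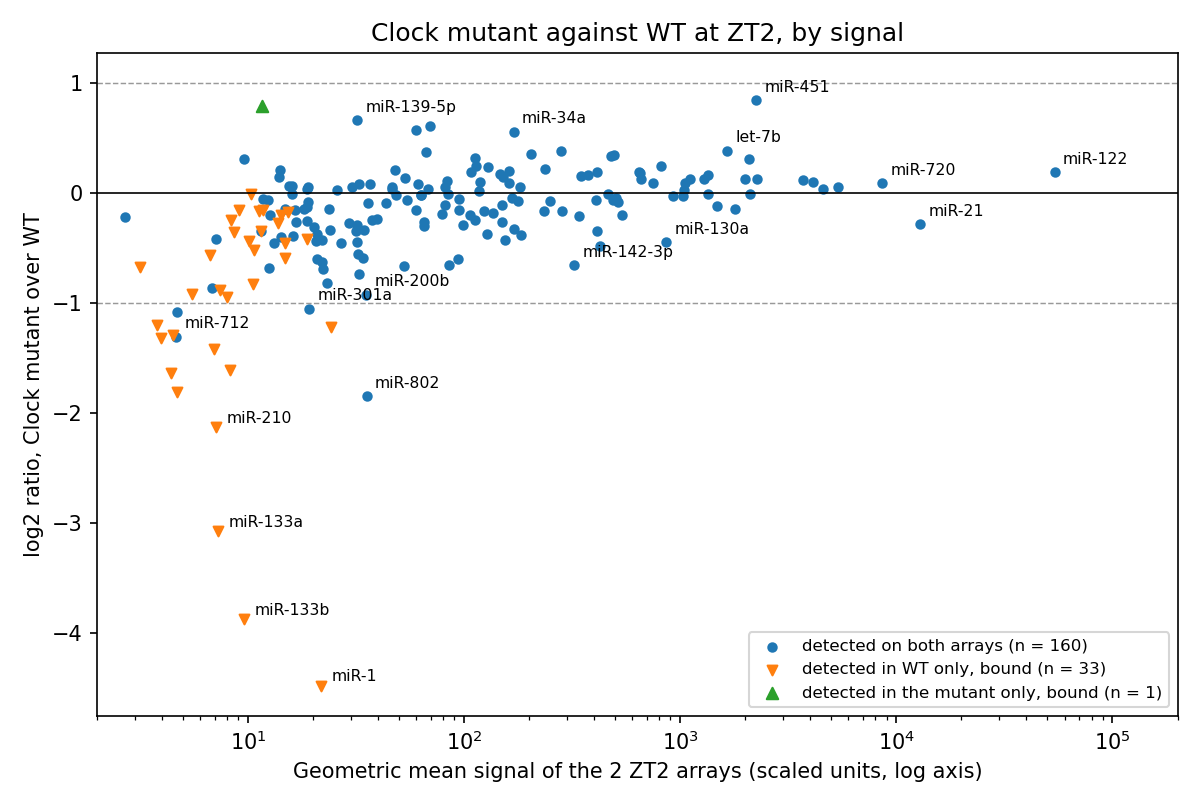
Log2 ratio of Clock mutant over WT at ZT2 (vertical) against the geometric mean signal of both arrays in scaled units (horizontal, log axis), 1 point per miRNA; triangles are bounds for miRNAs detected on 1 array, and dashed lines mark 2-fold. The spread narrows to the right, where miR-122, miR-720 and miR-21 lie between -0.28 and 0.19, and 32 of the 33 downward triangles belong to WT signals under 40.

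Liver was recognisable on both arrays by its hepatocyte miRNAs. miR-122, which is made almost only in hepatocytes and keeps their adult programme of lipid genes, gave 50598 scaled units in WT and 57783 in the mutant, a log2 ratio of 0.19 (spot SD 0.12). It was the brightest miRNA on both arrays and held 37.8% of the detected signal in WT and 40.8% in the mutant. These are shares of array signal, which depend on the probes as well as on the number of molecules. The cotranscribed miR-192 and miR-194, targets of hepatocyte nuclear factors, had log2 ratios of 0.098 (spot SD 0.099) and 0.17 (spot SD 0.072). miR-148a, the remaining member of the hepatocyte list, was at 1888 units in WT and 1709 in the mutant (log2 -0.14, spot SD 0.10). None of the 4 differed by more than 1.14-fold, and their summed signal was 57728 in WT and 65168 in the mutant. Relative to the median of all miRNAs the list stood at 0.20, which turned to -0.052 with quantile normalization. All 4 were in the class of 1000 or more, whose median was 0.095, against 0.13 for the list.

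Among the other bright miRNAs, miR-21 was lower in the mutant. It is a miRNA of growth and injury responses present in many cell types, and the next brightest on both arrays. Its signal was 14238 units in WT and 11717 in the mutant, a 1.22-fold decrease (log2 -0.28, spot SD 0.11), with 12298 and 12262 in WT and mutant at ZT14. Its share of detected signal went from 10.6% to 8.27%. WT at ZT2 stood above the other 3 arrays, which lay close together. miR-22, let-7f and let-7a, also among the 10 brightest, had log2 ratios of 0.053, 0.039 and 0.12, below or about equal to their spot SDs of 0.077, 0.12 and 0.12. The 10 brightest together held 71.9% of detected signal in WT and 73.6% in the mutant.

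Among miRNAs detected in both genotypes, miR-802 showed the greatest decrease (chr16:93369737-93369758, plus strand, in no annotated gene of the table used). It is a liver, pancreas and kidney miRNA. At ZT2 its signal was 67.0 units in WT against 18.6 in the mutant, with 41.5 and 17.9 at ZT14. Both mutant arrays lay below both WT arrays. The 2 probes for miR-802 gave log2 ratios of -2.15 and -1.72, each past 2-fold, and the ratio of their mean was -1.85 (spot SD 0.29). With normexp background correction the log2 ratio was -0.59, and with the scanner's summed signal per miRNA it was -0.038. miR-301a was next among the miRNAs whose decrease exceeded the spot SD, at 27.5 units in WT and 13.3 in the mutant, 2.07-fold lower (log2 -1.05, spot SD 0.44). Its hairpin lies within the span of Ska2 on chromosome 11, and only its brighter probe was above the negative controls on both arrays, at -0.85. With normexp the log2 ratio of miR-301a was -0.16. miR-130a, which shares the seed of miR-301a but differs from it at 10 of 22 compared bases, was also lower, with far brighter signals of 1001 and 736 units (log2 -0.44, spot SD 0.095). At ZT14 miR-130a was at 751 units in WT and 599 in the mutant. miR-301a showed no such difference at ZT14, with 13.8 units in WT, where it was not detected, and 13.4 in the mutant. Both detected members of the family were below WT at ZT2, and its other 2 members on the array were not detected. The rest of the 10 largest decreases, apart from miR-200a and miR-200b below, were of dim miRNAs. Among them, miR-712 and miR-805 were listed beforehand as entries from rRNA or tRNA, as was the bright miR-720. miR-712 was at log2 -1.31 and miR-805 at -1.08, with WT signals of 7.28 and 6.84 units against a negative control mean of 5.31. Probes with negative signal entered both averages, and that of miR-705. Probes above the negative controls on both arrays were at -0.22 and -1.06 for miR-712. For miR-805 such a probe was at -0.32, and for miR-705 they were at -0.58 and -0.37. miR-705 was at -0.86, miR-706 at -0.82 (spot SD 0.36), miR-1897-3p at -0.69 (spot SD 0.33) and miR-1198 at -0.68 (spot SD 0.59).

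Several miRNAs were higher in the mutant at both time points. miR-100 was at 56.0 units in WT and 85.7 in the mutant (log2 0.61, spot SD 0.15), with 50.9 and 72.2 at ZT14. miR-221, a miRNA that targets cell cycle inhibitors, was at 48.9 and 72.9 units (log2 0.58, spot SD 0.12), with 43.7 and 69.1 at ZT14. miR-34a, a p53 target that also acts on Sirt1 in liver, was at 140 and 206 units (log2 0.56, spot SD 0.16), with 112 and 177 at ZT14. For all 3, both mutant arrays were above both WT arrays. The ratio of miR-365 was log2 0.38 (spot SD 0.072) at ZT2 and 0.10 at ZT14. Over the 123 miRNAs detected on all arrays, the mutant arrays both lay above both WT arrays for 22 (17.9%) and both below for 26 (21.1%). These counts rest on how arrays are scaled to each other: without scaling they were 22 and 4, and with scaling by the spike-in controls, added after seeing the data, 30 and 2.

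Some other changes at ZT2 were not repeated at ZT14. Of the 19 miRNAs past 1.5-fold at ZT2, 13 were measured on both ZT14 arrays, 6 had the same sign there and 3 were past 1.5-fold in the same direction. These 3 were miR-802, miR-706 and miR-1897-3p. At ZT14 miR-706 was at log2 -2.36 (spot SD 1.62) and miR-1897-3p at -0.73 (spot SD 0.44). Of the 10 lower ones, 5 were above 0 at ZT14, where 43.9% of all miRNAs were above 0 and 56.1% below. In all 10 the WT array at ZT2 was the highest of the 4, which the way they were chosen favours, and it was the highest for 49 of the 123 miRNAs as a whole. In the plot of 4 arrays these miRNAs can be told from those that kept to genotype.

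**Figure D2:**
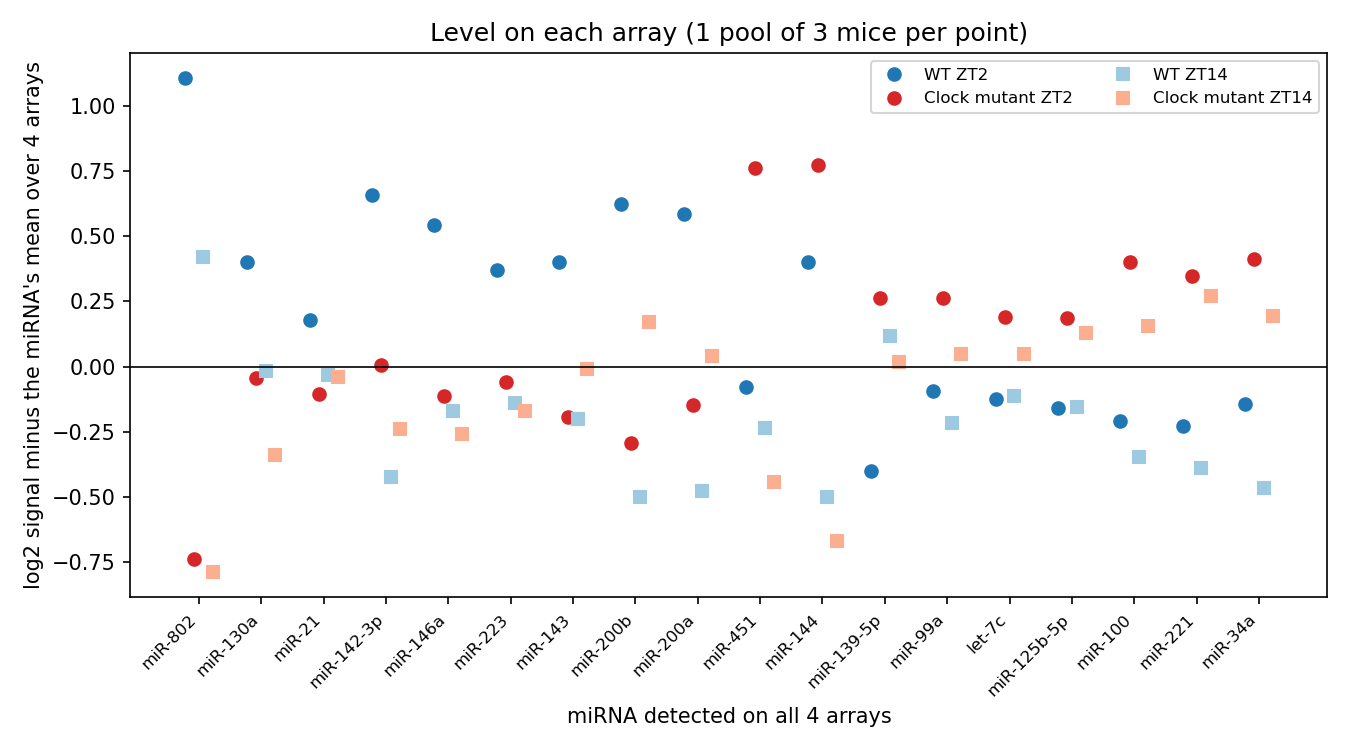
Log2 signal on each of the 4 arrays minus the miRNA's mean over them (vertical), for 18 miRNAs detected on all arrays; circles are ZT2, squares ZT14, blue WT and red Clock mutant. miR-802 and the group from miR-99a to miR-34a separate by genotype at both times, while for miR-142-3p to miR-200a the WT ZT2 circle stands above the other points, and for miR-451 the mutant ZT2 circle does.

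The leukocyte list had 7 miRNAs on the array, of which 3 were measured on both ZT2 arrays and all 3 were below WT, against 60% of all miRNAs, with a median log2 ratio of -0.66 against -0.065 over all. miR-142-3p, expressed through the blood lineages, was at 406 units in WT, 258 in the mutant, and 191 and 218 in WT and mutant at ZT14 (log2 -0.66 at ZT2, spot SD 0.098). Its 2 probes agreed, at -0.64 and -0.68. miR-146a, a brake on NF-kB signalling, was at 107.1 and 68.0 units, with 65.3 and 61.5 at ZT14 (log2 -0.66, spot SD 0.099). miR-223, the myeloid and neutrophil miRNA, was at 180 and 134 units, with 126 and 124 at ZT14 (log2 -0.43, spot SD 0.10). In each, the WT ZT2 array was the highest of the 4. miR-142-5p, the other arm of the miR-142 hairpin, was detected on the WT ZT2 array alone. It was at 36.8 units against 15.9 in the mutant, 2.32-fold lower as a ratio to an undetected signal. miR-150, miR-155 and miR-146b were not detected on either array. miR-342-3p, which lies within Evl and was not on the list (chosen after its value was seen), gave 65.9 units in WT and 41.7 in the mutant, and 40.04 and 42.7 at ZT14. From pooled whole liver, fewer cells of a type and less of a miRNA per cell cannot be told apart.

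The bile duct epithelium list, the miR-200 family that holds epithelial identity by repressing Zeb factors, was also highest on the WT ZT2 array. miR-200b had 48.4 units in WT against 25.5 in the mutant at ZT2, with 22.2 and 35.3 at ZT14 (log2 -0.92, spot SD 0.26, at ZT2). miR-200a was at 41.9 and 25.2 units, and at 20.03 and 28.8 at ZT14 (log2 -0.73, spot SD 0.32). WT was the higher genotype at ZT2 and the lower at ZT14 for both, whose hairpins lie together at chr4:156054911-156055706 on the minus strand. miR-429, from the same locus, was detected at ZT2 in WT only, at 18.3 units against 12.1, a bound of 1.51-fold lower. miR-141, from chromosome 6, was at 8.73 units in WT and 0.70 in the mutant. Its log2 difference was -0.69 when the mutant was held at the mean of the negative controls and not past 2-fold, against a bound of 3.50-fold from the lowest detected signal. The remaining member, miR-200c, was undetected.

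Markers of other cells differed between the same arrays. The red cell list was above WT in both members measured on both arrays, against 40% of all miRNAs. miR-451, a red cell miRNA matured by Ago2 without Dicer, had 1671 units in WT against 2997 in the mutant, with 1498 and 1297 at ZT14 (log2 0.84, spot SD 0.060). miR-144, from the same transcript (chr11:78073047-78073207), was at 58.3 and 75.5 units, with 31.2 and 27.7 at ZT14 (log2 0.37, spot SD 0.13). miR-486, also abundant in red cells, was the only miRNA detected in the mutant but not in WT at ZT2. It was at 15.3 units against 8.86, 1.73-fold higher as a ratio to an undetected signal. The mutant ZT2 array was therefore the highest of 4 for all 3, and the summed signal of the list was 1738 units in WT and 3088 in the mutant, against 1539 and 1331 at ZT14.

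The muscle list was higher in WT. Of its 7 miRNAs, 3 were detected on the WT ZT2 array and on none of the other 3, and 4 were not detected at ZT2. miR-1 was at 103 units in WT and 4.61 in the mutant, with 0.91 and 2.37 at ZT14. miR-133b was at 36.5 and 0.61 units, and miR-133a at 21.0 and 0.54. The summed signal of the list was 162 units in WT at ZT2 and between 2.28 and 5.75 on the other arrays, so these miRNAs, known from skeletal and heart muscle, were read on the WT ZT2 array alone. That pool also had the highest summed signal of the leukocyte list, 740 units against 394 to 477, and of the bile duct list, 124 against 53.6 to 81.2. The part of other tissue or cells in the decreases above was not tested. For the endothelium list, miR-126-3p and miR-126-5p, log2 ratios were 0.13 (spot SD 0.065) and 0.020 (spot SD 0.18). In the mesenchymal list, miR-143 was lower at 115 against 76.4 units (log2 -0.59, spot SD 0.11), with 75.9 and 86.8 at ZT14, whereas miR-199a-3p, miR-199a-5p and miR-214 had ratios of 0.057, 0.085 and -0.15, all within their spot SDs.

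**Figure D3:**
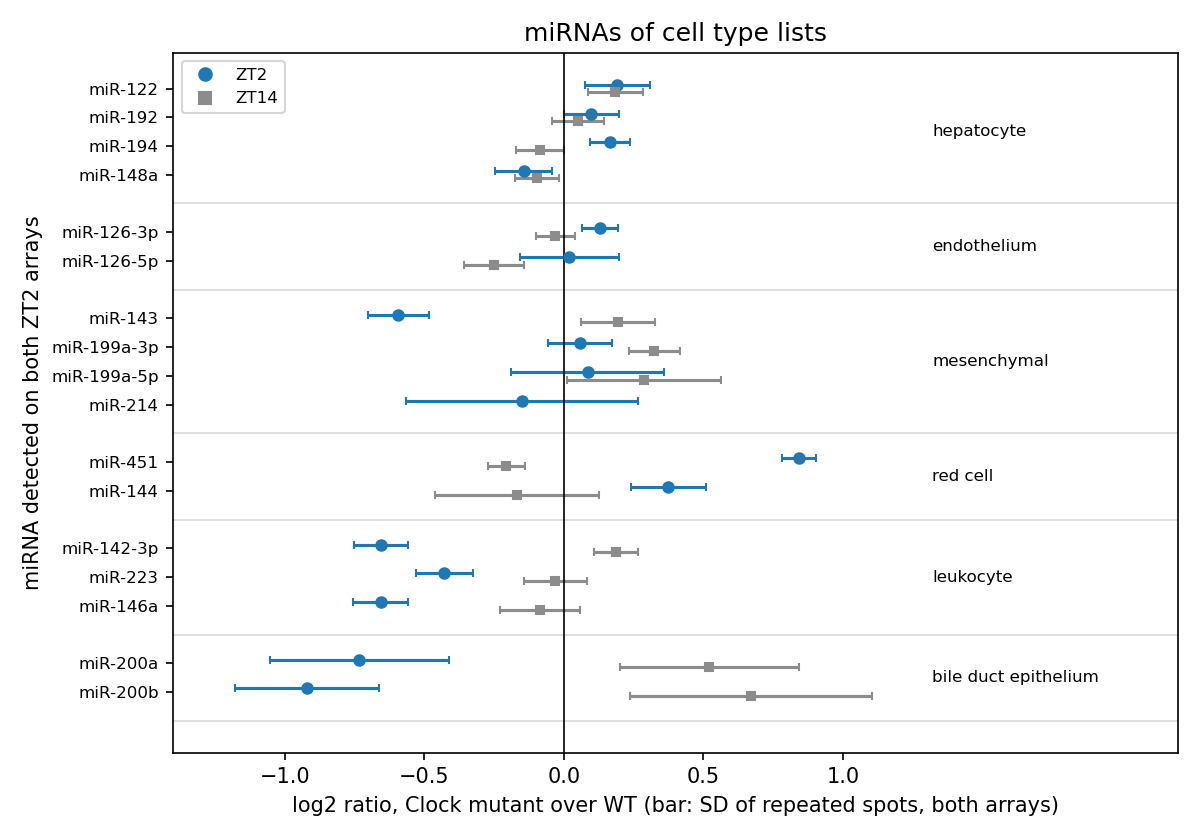
Log2 ratio of Clock mutant over WT (horizontal) for the members of 6 cell type lists detected on both ZT2 arrays; circles are ZT2, squares ZT14, bars the SD of repeated spots on both arrays. The leukocyte and bile duct members lie left of 0 at ZT2 between -0.92 and -0.43, and the bile duct members lie right of 0 at ZT14, at 0.52 and 0.67.

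Families with a shared seed mostly stayed close to WT. The 117 miRNAs with both a ratio and a matched RefSeq sequence gave 16 groups with the same seed, of which 5 had all matched members on the same side of 0. What groups of unrelated miRNAs would give was not tested. The let-7 family, which restrains growth genes such as Lin28 and Ras, had 9 members on the array, all detected on both arrays, with 6 above 0. Over all miRNAs 40% were above 0, with 16 of 22 in the class of 1000 or more and 25 of 52 from 100 to 1000. The let-7 median log2 ratio was 0.12, which was 0.19 above the median of all miRNAs and -0.052 from it with quantile normalization. let-7b (1436 units in WT, 1876 in the mutant) and let-7c (1874 and 2328) were at 0.39 and 0.31, past their spot SDs of 0.12 and 0.10. let-7e was lower in the mutant, at 163 and 136 units (log2 -0.26, spot SD 0.16). In the miR-15/16 family, which holds back the cell cycle, 5 of 6 were above 0, against the same 40%, with a median of 0.18. Among them was miR-16 at 746 and 885 units (log2 0.25, spot SD 0.057). miR-25 and miR-92a, alike in seed, were at 0.32 and 0.34, and miR-103 and miR-107, tied to insulin sensitivity, at 0.22 and 0.19. The families of miR-26a, miR-29a and miR-148a had medians between -0.019 and -0.0058, and miR-30, with 5 members, -0.0088.

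**Figure D4:**
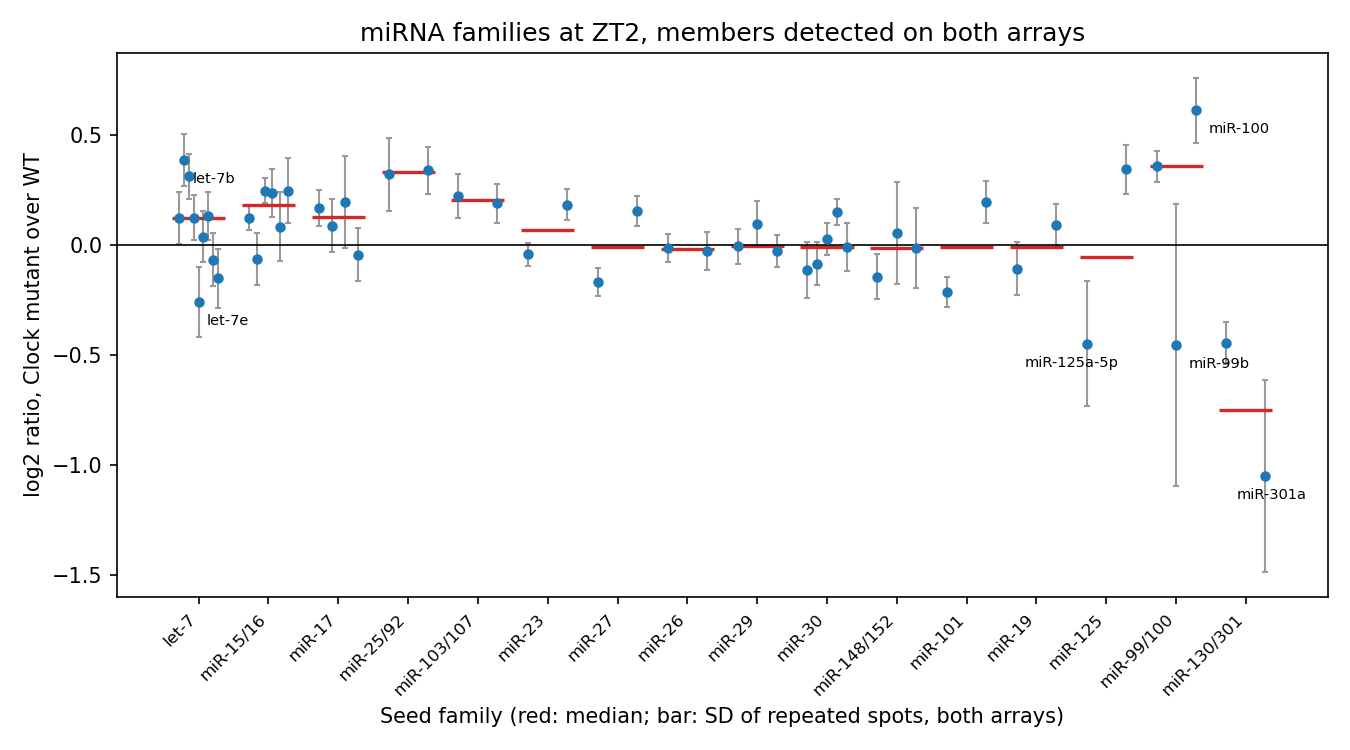
Log2 ratio of Clock mutant over WT at ZT2 (vertical) for members of 16 seed families (horizontal) detected on both arrays; points are miRNAs, bars the SD of repeated spots on both arrays, red lines family medians. Most medians lie near 0, the family of miR-130a and miR-301a lies at -0.75, and that of miR-99a and miR-100 holds members at 0.61 and -0.45.

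The widest splits within a seed family fell between genomic clusters. miR-99a, let-7c and miR-125b-5p are encoded within 50 kb on chromosome 16 (chr16:77598940-77646300, plus strand). Their log2 ratios were 0.36 (spot SD 0.072), 0.31 and 0.34 (spot SD 0.11). miR-99a was at 180 units in WT and 230 in the mutant, with 165 and 198 at ZT14, and miR-125b-5p at 439 and 558, with 440 and 537. For these 3 miRNAs both mutant arrays were above both WT arrays, as for miR-100, whose gene lies in Mir100hg on chromosome 9 beside another copy of miR-125b. The paralogous cluster on chromosome 17 (chr17:17830194-17830840, with miR-99b and miR-125a in Spaca6) was below WT at ZT2 in all 3 members. miR-99b was at 15.4 and 11.2 units (log2 -0.45, spot SD 0.64), let-7e at -0.26, with 134 and 141 units at ZT14 (log2 0.073), and miR-125a-5p at 37.1 and 27.2 units (log2 -0.45, spot SD 0.28), with 39.2 and 31.0 at ZT14. miR-99b did not pass its spot SD, and only its brighter probe was above the negative controls on both arrays, at -0.27. The seed group of miR-99a, miR-100 and miR-99b had the widest range of the 16 groups, 1.07 on the log2 scale, with the dim miR-99b at its lower end. miR-125a-5p and miR-125b-5p followed with 0.79.

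Among the 117 miRNAs with a matched sequence, 22 clusters held at least 2 miRNA genes within 50 kb of each other, and 11 had every matched member on the same side of 0. Over all miRNAs 60% were below 0 and 40% above. What sets of unrelated miRNAs would give was not tested. A mature miRNA with several gene copies was counted in each of its clusters. Members without a match, such as miR-23b and miR-30b, were left out of these counts. The miR-17 to miR-92a cluster on chromosome 14 was mixed, with 3 of 6 members above 0 from -0.40 for miR-18a to 0.34 for miR-92a. miR-23a and miR-27a on chromosome 8 were at -0.043 and -0.17, and miR-23b and miR-27b, their paralogues, at 0.18 and 0.15 (spot SDs 0.053, 0.064, 0.072 and 0.068). Clusters in which a mature miRNA has several gene copies, such as let-7c or miR-24, cannot be told apart on the array.

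Arms of a hairpin were measured together in 16 cases, and 13 pairs lay on the same side of 0. miR-139 was the widest, with miR-139-5p at 25.3 units in WT and 40.2 in the mutant (log2 0.67, spot SD 0.30) and miR-139-3p at 8.16 and 6.13 (log2 -0.41, spot SD 1.02). The latter was close to the negative controls, which averaged 5.31 scaled units in WT and 5.42 in the mutant. Passenger strands, marked by an asterisk in the array's names, numbered 115, of which 18 were detected, 14 on both arrays, and 11 of the 14 were below 0, against 60% of all miRNAs and 72.5% of those with signals from 10 to 100, where these strands lay. Probes of the same miRNA that were above the negative controls gave closely similar ratios. For 145 miRNAs with at least 2 probes above the negative controls on both arrays, the median range between probes was 0.080 on the log2 scale and 0 differed by more than 2-fold. Every such probe lay on the same side of 0 for 126 of the 145. Other probes were left out of this comparison but enter the ratios of miRNAs. For miR-139-3p the probe above the negative controls was at -0.093. Agreement of probes bears on the array reading and says nothing about differences between mice.

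GC content was looked at because it affects hybridization. Among the 117 miRNAs with a sequence and a value on both arrays, split into equal groups of 39, the medians were -0.027, -0.0058 and -0.15 from low to high GC. The group of high GC was also dimmer, with a median WT signal of 63.1 units against 163 and 157, so GC and signal cannot be told apart here. The miRNAs of the miR-297, miR-466, miR-467 and miR-669 groups, which lie in repeats and have near-identical copies, had 39 members on the array and 15 detected. All 10 measured on both ZT2 arrays were below 0, from -0.45 to -0.065, with a median of -0.27, against 60% below 0 over all miRNAs and 72.5% in the class from 10 to 100. The 3 of them measured on both ZT14 arrays had a median of -2.81, further below 0 than at ZT2.

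The 33 miRNAs detected in WT but not in the mutant were dim. Their WT signals ran from 3.96 to 103 units with a median of 11.9, and 29 were detected on no other array. The WT ZT2 array detected more miRNAs than any other array. The mutant array detected 161 at ZT2, and the WT and mutant arrays detected 138 and 142 at ZT14. Whether detection in WT only reflects genotype or this single array was not tested. The mutant signal was below WT in all 33, yet in 20 it lay above the mean of the negative controls on the mutant array. miR-298, chosen after its values were seen, was at 10.3 units on both. Past 2-fold there were 12 bounds. Besides the muscle miRNAs, miR-142-5p and miR-141, they were miR-210, the hypoxia miRNA, at 14.8 against 3.38 units (4.37-fold lower), and miR-137, miR-125a-3p, miR-188-5p, miR-29b*, miR-181a and miR-455, whose bounds ran from 2.30-fold to 3.11-fold. These 6 had WT signals of 5.74 to 14.4 units. The bounds depended on the level given to the undetected side. With the mutant held at no less than the mean of its negative controls, 11 rather than 16 miRNAs were at least 2-fold lower. The 5 lost were miR-141 and, with log2 values of -0.52 to -0.085, miR-125a-3p, miR-181a, miR-29b* and miR-455. The bound of miR-210 was smaller there but stayed past 2-fold. Calling a miRNA detected from its spots well above background left 136 detected at ZT2 and 2 at least 2-fold lower.

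**Figure D5:**
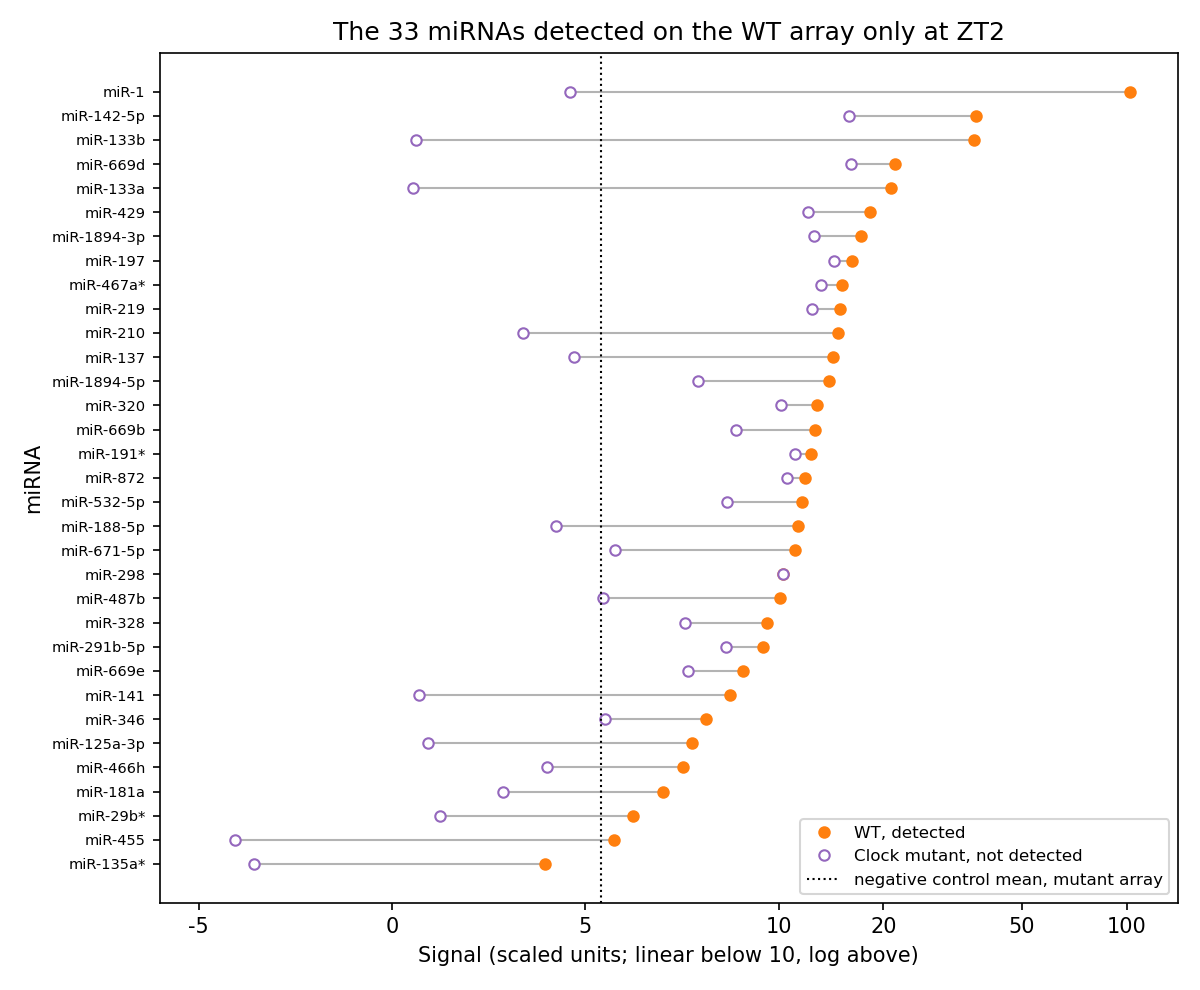
Scaled signal (horizontal, linear below 10 and log above) of the 33 miRNAs detected on the WT array only at ZT2; filled circles are WT, open circles the Clock mutant, and the dotted line the mean of the negative control spots on the mutant array. miR-1, miR-133a and miR-133b have the longest lines, and 20 open circles lie right of the dotted line.

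The list of 14 miRNAs that the study carried forward was chosen on these same arrays, so its direction on them is not independent evidence. At ZT2 it had 10 members measured on both arrays, 8 of them above 0 against 40% of all miRNAs, with a median log2 ratio of 0.24. The other 4 (miR-669d, miR-429, miR-532-5p and miR-455) were detected in WT only and were all lower in the mutant, so that 8 of the 14 were above 0 and 6 below. It includes miR-100, miR-221 and miR-34a above, and miR-802 below by more than 2-fold. miR-455 was past 2-fold with the main bound but not with the mutant at the negative controls. The paper reported miR-669d and miR-338, along with miR-340, miR-195 and miR-374, as upregulated on the array and by qRT-PCR. Here miR-669d was lower, at 21.5 units in WT and 16.2 in the mutant (log2 -0.41, spot SD 0.37). miR-338-5p was also below 0, at 2.89 and 2.50 units, under the negative control means. Its only probe above the negative controls was at log2 0.41. miR-340-3p, miR-195 and miR-374 were above 0. The cause of the difference from the paper was not tested.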

How the data were processed

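Liver RNA was measured on 1-colour Agilent miRNA arrays, with all 4 arrays on 1 slide and scanned together. The authors deposited the scanner output of Feature Extraction 10.7.1.1 (version per the submitters' processing notes), which gives a background-subtracted linear intensity per spot, outlier flags and a detection call per miRNA, with no scaling between arrays. A second table that the authors deposited holds processed log2 values, 1 per miRNA and array, and served only as an alternative. Each array held 12220 spots of mouse miRNAs, of which 3.36% (WT at ZT2) and 3.18% (mutant at ZT2) were flagged as outliers and left out, and 0 were saturated.

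Intensities were averaged over the spots of a probe and then over probes, divided by the array's 75th percentile (over the 123 miRNAs that every array detected), and compared as log2 ratios. A miRNA detected on 1 array was given a bound, its signal there against the higher of its own signal and the lowest detected signal on the other array (2.50 scaled units in the mutant, 2.89 in WT). Where its own signal was the higher, the bound is a plain ratio to an undetected signal and not a lower limit. With 1 array per genotype there was no test, and the number of arrays limits the precision. The mean of the negative control spots was 5.48 unscaled units in WT and 5.24 in the mutant.

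miRNAs named are the 10 largest changes in each direction measured on both arrays, bounds past 2-fold, the miRNA detected in the mutant only, the 10 brightest, members of the lists and families, and the 14 of the study. Clusters, GC groups and the order of the 4 arrays were added after seeing the data. The miRNAs, lists and rules were chosen with earlier results of these data known. Alternatives were other scalings (none, other percentiles or sets, median, quantile with a floor of 1, loess with a span of 0.5), normexp with an offset of 50, median over spots, outliers kept, the scanner's summed signal, the authors' log2 table, stricter detection, a floor at the negative controls, miRNAs detected on both arrays only, other fold thresholds and levels from all 4 arrays. Scaling by the 4 spike-in controls and a zero at the median of undetected miRNAs were added after seeing the data. The steps were tested on simulated data. Python 3.11.15, numpy 2.4.6, pandas 2.3.3, statsmodels 0.14.6, matplotlib 3.10.9, R 4.3.3 and limma 3.58.1 were used.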

Additional observations from a re-analysis of the deposited data

Results flagged for a closer look

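miR-200b was drawn out because its ratio of mutant to WT went past 1.5-fold in opposite directions at the 2 time points, with log2 values of -0.92 at ZT2 (spot SD 0.26) and 0.67 at ZT14 (spot SD 0.43). The difference between time points was not tested, since each condition has 1 array.

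Probes outside the mouse miRNAs also gave signal. Of 39 viral miRNAs on the array, 3 were detected on both ZT2 arrays. Before scaling, mcmv-miR-M23-1-5p was at 119 units in WT and 102 in the mutant, mcmv-miR-m88-1 at 76.7 and 51.5, and mghv-miR-M1-2 at 34.2 and 31.1. The source of this signal was not tested.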

How the results depend on the processing

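No paired analysis was possible because there is a single array per genotype at ZT2. The count of miRNAs lower by 2-fold or more, 16, was 11 with a floor at the negative control mean, 10 with the percentile over all mouse miRNAs, 9 with loess, 9 in the authors' log2 table, 5 with quantile normalization, 5 with the zero at the median of undetected miRNAs, 4 over miRNAs detected on both arrays, 2 with detection from spots well above background, 1 with normexp and 33 with the summed signal. The number higher, 0, was 1 with loess or quantile normalization, 2 with the percentile over all mouse miRNAs, 17 with the summed signal and 27 in the authors' table. At 1.5-fold, 34 were lower and 4 higher, and at 3-fold 8 were lower. The percentile over all mouse miRNAs moved the median ratio from -0.065 to 0.24, and the medians of the classes from 10 to 100, 100 to 1000 and 1000 or more to 0.16, 0.29 and 0.40. In the authors' table the median was 0.74, and the 4 classes, dimmest first, were at 0.65, 0.58, 0.79 and 0.90. Quantile normalization gave 0.12 in the class from 10 to 100, and the summed signal -0.24 and -0.13 in the 2 brighter classes. Relative to the median of all miRNAs, the leukocyte list stood at -0.59, and at -0.36 with normexp and -0.71 with the summed signal. The bile duct list stood at -0.76, and at -0.25 with normexp and -1.08 in the authors' table. The red cell list stood at 0.67, and at 0.47 with quantile normalization, 0.50 with normexp and 0.56 with the summed signal. The hepatocyte list and let-7, at 0.20 and 0.19, were at -0.052 and -0.052 with quantile normalization, 0.060 and 0.056 with loess, and 0.079 and 0.070 with the summed signal. The number of miRNAs with both mutant arrays below both WT arrays, 26, and above, 22, was 3 and 76 with the percentile over all mouse miRNAs, 17 and 55 with that over miRNAs detected on both ZT2 arrays, 12 and 34 with quantile normalization, 42 and 13 with the summed signal, and 0 and 0 in the authors' table. The number below was also 4 without scaling, 2 with spike-in scaling and 7 with detection from spots well above background. For loess these 2 counts were not run, since it was fitted to ratios. miR-805 turned to 0.010 with normexp and 0.49 in the authors' table, and miR-712 to 0.59 in that table. Of 51 named miRNAs, 37 kept their sign under every alternative that gave a value. The causes were not tested. Signal close to the negative controls limits the ratios of dim miRNAs.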
